A study of Mus musculus with 17 samples.

Results

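The hippocampal transcriptome of CBP-ifKO mice was compared with that of controls over all treatments at once, to describe which functional classes of genes and which cell type markers the many small differences between the genotypes fall into. All 17 libraries of the series that could be matched to a sample entered the comparison, 9 from CBP-ifKOs and 8 from controls. In CBP-ifKOs Crebbp is floxed and the Camk2a promoter drives creERT2, a recombinase switched on by tamoxifen, so that tamoxifen removes functional CBP from excitatory neurons of the adult forebrain while interneurons, glia and vessels of the same hippocampus keep it. The labels name the Camk2a creERT2 line for the controls as well, whereas the methods of the study describe the controls as littermates without the recombinase, and mice of both genotypes were given tamoxifen. The labels give the strain of all mice as C57BL/6 (C57BL/6J in the methods) and their age as 3 to 6 months. In each genotype, Sal mice received saline and did not go through kindling. PTZ0 mice went through a kindling protocol of repeated doses of the convulsant pentylenetetrazole (PTZ) and were then given saline. PTZ45 mice went through the same protocol and were then given 45 mg/kg PTZ. Tissue was taken 45 min after the last injection. According to the study the protocol led to seizures in controls, whereas no CBP-ifKO reached the stage of progressive seizures. Seizure history in PTZ0 and PTZ45 mice therefore differed with genotype. Each group of genotype and treatment held 3 libraries, except the control PTZ45 group with 2. According to the methods each saline-treated sample of this kindling experiment came from 1 male mouse, while the sources used here do not say so for PTZ0 and PTZ45 and do not name litters. The p-values measure the spread between these samples.

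CBP, the product of Crebbp, is a lysine acetyltransferase and transcriptional coactivator. CREB and many other transcription factors recruit it to enhancers and promoters, where it acetylates histone tails and helps to assemble the transcription machinery, and its paralogue p300, the product of Ep300, does much the same. In neurons CBP is best known as a partner of CREB in the transcription that follows synaptic activity, and loss of a copy of CREBBP in humans causes Rubinstein-Taybi syndrome, a form of intellectual disability.

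The libraries held 5831992 to 18735643 counts. In 5 of them the summed level of 22 markers of the choroid plexus, a secretory epithelium that lies against the hippocampus, was 12433 to 49987 normalized counts (counts divided by the size factor of the library), against 735.1 to 1584 in the other 12. These 5 were CBP-ifKO Sal 1, PTZ0 3 and PTZ45 2 and control Sal 2 and PTZ0 2, and they are called the choroid-high libraries below. Of the 22 markers 3 were at 0 in some library (Steap1, Oca2 and Wfdc2). An adjusted p was given for 8, with a median of 34.3 normalized counts, and none of the 8 was called different between the genotypes. DESeq2 gives no adjusted p to genes of low count or with outlying counts in single libraries, so nothing follows for the other markers. Genotype also ran close to the sequencing lane in the sample names: lane 3 held the control Sal and PTZ0 libraries, lane 4 the control PTZ45 and CBP-ifKO Sal libraries, and lane 5 the CBP-ifKO PTZ0 and PTZ45 libraries. Only lane 4 held both genotypes, and there genotype and PTZ changed together, so outside lane 4 the lane and the genotype cannot be told apart, and the median with lane as a term is given beside each printed class median that it moved by over 1.5 times or turned in sign, as is the median without the choroid-high libraries. The genotypes themselves matched the labels in all libraries, since Crebbp was at 1061 to 1337 normalized counts in CBP-ifKOs and at 1824 to 2429 in controls, and Esr1, part of which belongs to creERT2, was at 703.3 to 940.7 and at 40.99 to 77.82. Markers of excitatory forebrain neurons were present throughout, with a summed level of 59696 to 74133 normalized counts over 16 markers and none at 0 in any library.

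Most differences were small and ran in both directions. DESeq2 gave an adjusted p for 18682 genes, and at a threshold of 0.05 it called 1449 of them higher in CBP-ifKOs (7.76%) and 2157 lower (11.5%). Genes called higher had a median log2 fold change of 0.24, with quartiles of 0.18 and 0.35, and 1288 of them (88.9%) differed by less than 0.5. Genes called lower had a median of -0.25, with quartiles of -0.40 and -0.18, and 1787 of them (82.8%) differed by less than 0.5. A log2 difference over 1 was reached by 19 higher and 60 lower genes. Over all genes tested the median was 0.01, and 52.3% lay above 0. The sign was the same in Sal, PTZ0 and PTZ45 for 1435 of the higher genes (99.0%) and 2127 of the lower genes (98.6%), against 53.4% of all genes tested, and these shares rest on the same libraries that made the calls. In whole hippocampus, fewer cells of a type and less RNA per cell cannot be told apart.

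**Figure D1:**
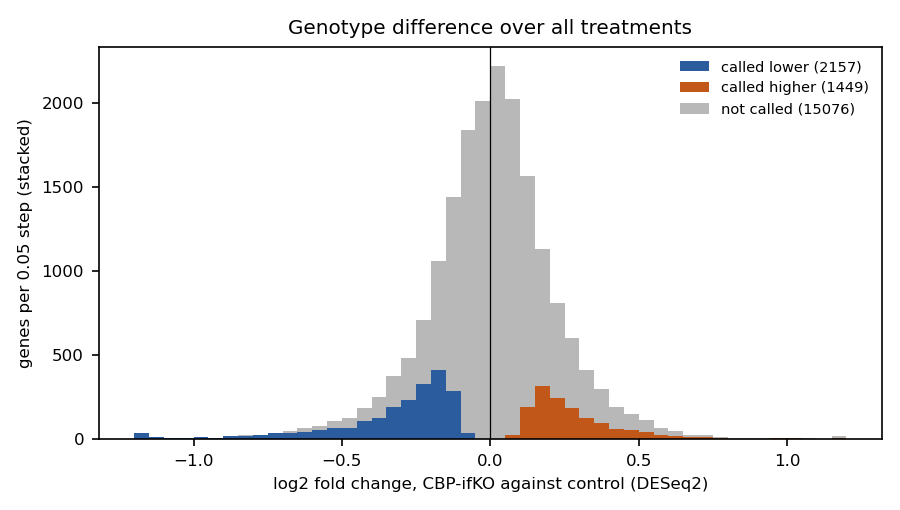
Number of genes (y axis) by log2 fold change of CBP-ifKOs against controls over all treatments (x axis, steps of 0.05, values beyond the axis placed in the end steps), stacked and coloured by call. Both called groups sit close to 0, the 2157 lower genes at a median of -0.25 and the 1449 higher genes at a median of 0.24.

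With lane as a term the median standard error (SE) over all genes tested rose from 0.09 to 0.29 and 3 genes were called higher and 132 lower. In that fit 1325 of the higher genes (91.4%) and 2060 of the lower genes (95.5%) kept their sign, against 72.2% of all genes tested, with medians of 0.21 and -0.27. This fit has as many terms as there are groups. Its genotype value is therefore the Sal difference plus the PTZ45 difference minus the PTZ0 difference. It corrects for lane only where the genotype difference does not depend on treatment. The signs it gives rest on the same libraries that made the calls. Within lane 4, where PTZ also differs, the signs were the same for 94.6% and 94.9%, against 74.5% of all genes tested, and these libraries are part of the 17. Without the choroid-high libraries 625 genes were called higher and 1245 lower, of which 592 and 1141 had been called in that direction with all libraries.

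A complete separation of the genotypes was less frequent. In 155 genes (0.83% of those tested) all 9 CBP-ifKO libraries lay above all 8 controls, and in 404 genes (2.16%) all lay below. Among separated genes averaging 50 or more normalized counts, the largest differences downward were in Otof, C1ql2, Gm26644, 4921539H07Rik and Penk. Otof, which encodes otoferlin, a calcium sensor of vesicle release, had 66.3 to 137 normalized counts in controls (median 94.2) and 14.04 to 35.3 in CBP-ifKOs (median 33.1). Its log2 fold change was -1.77 (SE 0.16). C1ql2 encodes a C1q-like protein that granule cells secrete at mossy fibre synapses, and it had 249.9 to 367 in controls and 74.7 to 137 in CBP-ifKOs (normalized counts, medians 279 and 87.2). The difference was -1.66 (SE 0.10). The noncoding genes Gm26644 and 4921539H07Rik had log2 fold changes of -1.65 and -1.50, and Penk, which encodes the precursor of the enkephalins, had -1.36. Both 4921539H07Rik and Penk overlap a gene on the other strand, and whether strand was used in counting is not given in the sources used here, so their reads may be shared. Upward, after the transgene-linked Esr1, the largest were Frem3, Spata1, Adi1 and Nudt17. Frem3, for an extracellular matrix protein, had 18.74 to 39.4 normalized counts in controls (median 31.9) and 68.7 to 110.1 in CBP-ifKOs (median 93.4), a difference of 1.60 (SE 0.14). Adi1, an enzyme that salvages methionine, had 122 to 143 in controls and 219.5 to 258 in CBP-ifKOs (normalized counts, medians 130.4 and 229), a difference of 0.84 (SE 0.07). Spata1, which overlaps Ctbs on the other strand, differed by 0.94 and Nudt17, which overlaps Pias3 in the same way, by 0.79. By the rule that named them, the genotypes did not overlap in any of these genes.

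The genes were then read class by class, in 54 functional classes and 20 lists of cell type markers. A gene can belong to several classes. For each class the count of members called higher and lower is given, and for many classes the median log2 fold change of the tested members. These are to be read against 7.76% higher, 11.5% lower and a median of 0.01 over all genes. Complete separation is to be read against 2.16% of genes below and 0.83% above. In the lowest of 4 equal strata of expression 2.15% of genes with a shorter span and 4.13% with a longer one were called lower. In the highest stratum these shares were 20.6% and 29.72%. Classes were not compared with genes of like expression. Counts without the choroid-high libraries, where 625 genes were called higher and 1245 lower, are added where a count of 5 or more went down by over 1.5 times. In the classes of neuronal communication most called members were lower, while among the called members of the numbered zinc-finger proteins, histone methylation enzymes and splicing factors most were higher. In the 17 classes with some members called lower and 0 called higher by DESeq2, 7 of 628 tested memberships were higher at an unadjusted p under 0.05 and 0 were called higher by edgeR.

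**Figure D2:**
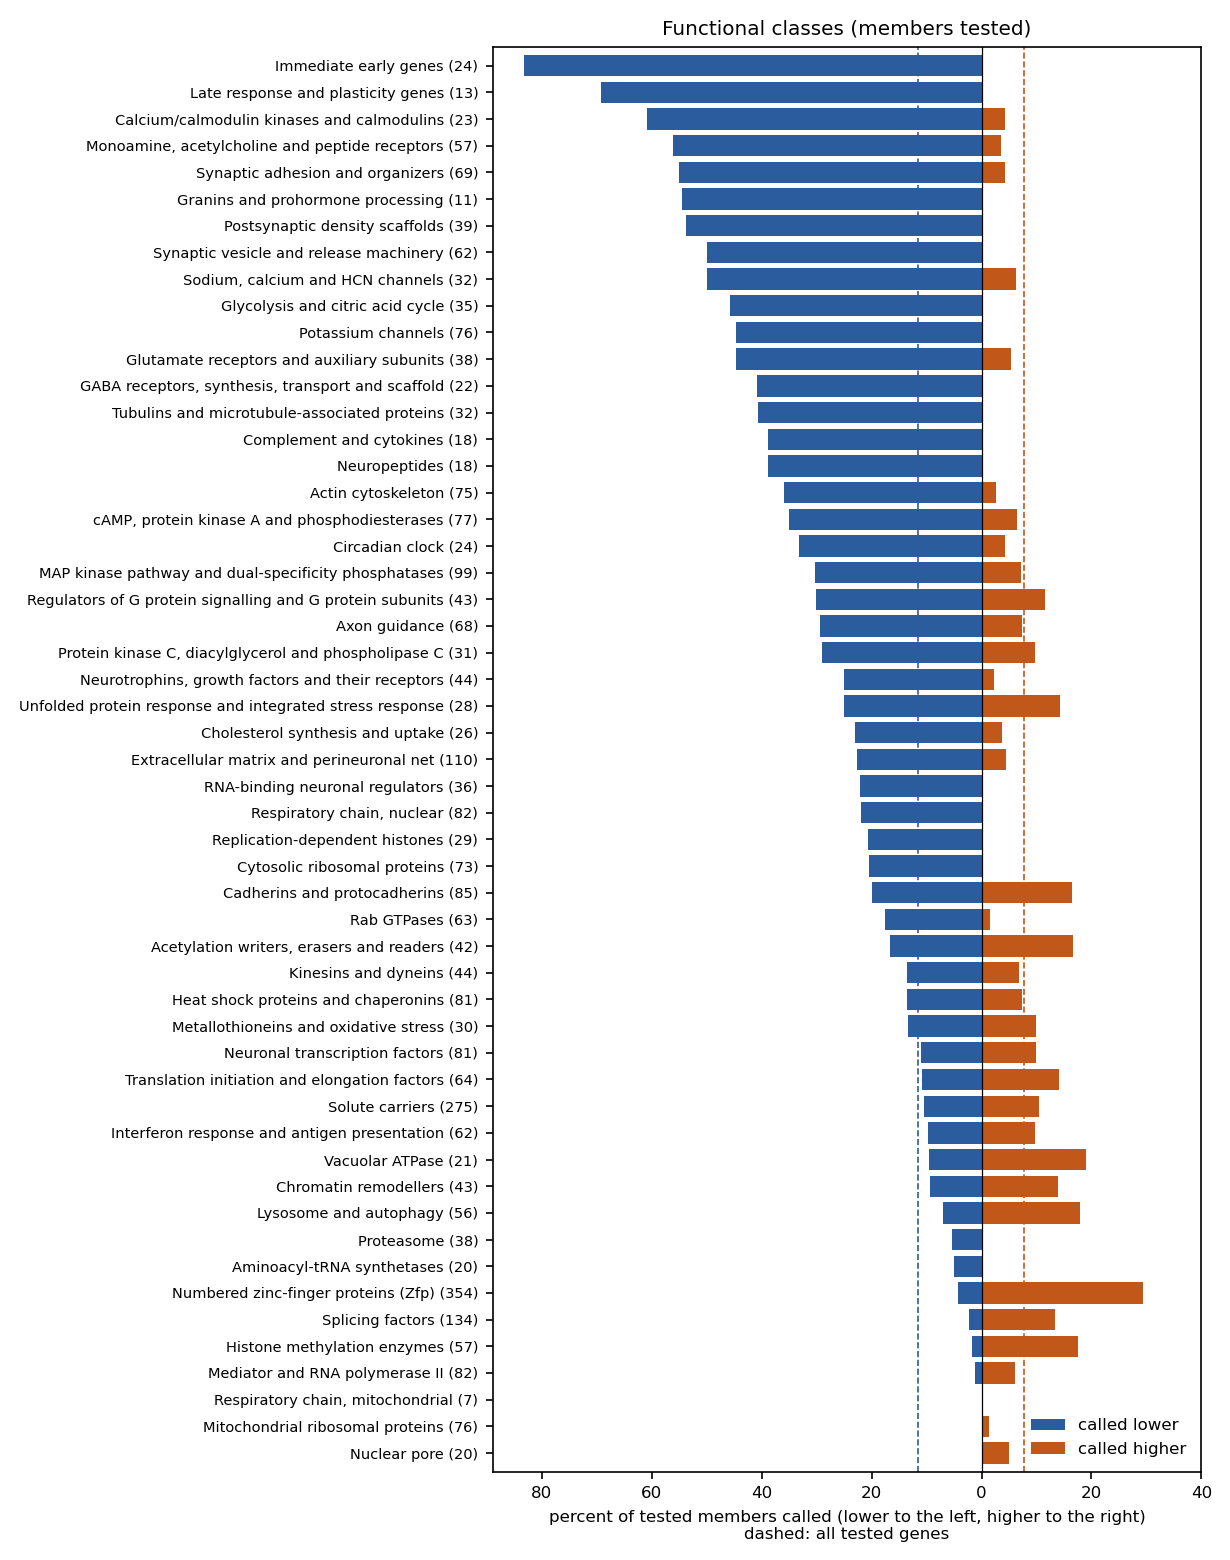
Percent of tested members called lower (bars to the left) and higher (bars to the right) in CBP-ifKOs for 53 of the 54 functional classes, with the numbers tested and the shares over all genes tested as dashed lines at 11.5% and 7.76%. Immediate early genes have the longest bar to the left (83.3%) and the numbered zinc-finger proteins the longest to the right (29.4%).

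Receptors for monoamines, acetylcholine and peptides, through which modulatory transmitters set the state of hippocampal neurons, made up the class of receptors with the most calls. Of 57 receptors tested 32 were called lower and 2 higher, and the median was -0.28. In 15 of them all CBP-ifKO libraries lay below all controls, against 2.16% of all genes tested. The median was -0.38 with lane as a term and -0.29 without the choroid-high libraries, where 26 were called lower. Htr2a, a serotonin receptor coupled to phospholipase C, had 303 to 380.3 normalized counts in controls (median 356) and 183 to 222 in CBP-ifKOs (median 209.7). The genotypes did not overlap, with a log2 fold change of -0.77 (DESeq2 adjusted p 4.66e-33, SE 0.06). Htr1a, an inhibitory serotonin receptor, had 435 to 495 in controls and 262 to 396 in CBP-ifKOs (normalized counts, medians 454 and 312), also without overlap, and differed by -0.52 (DESeq2 adjusted p 2.53e-13, SE 0.07). Npy1r, a receptor of neuropeptide Y, was lower at -0.43 and Htr1b at -0.50. The 2 higher members were Drd5, a dopamine receptor, at 0.42 (DESeq2 adjusted p 0.000838, SE 0.10), and Chrnb2, a nicotinic acetylcholine receptor subunit, at 0.17 (DESeq2 adjusted p 0.00156, SE 0.04).

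Receptors for fast transmission carry the signal itself, glutamate exciting and GABA inhibiting the neuron. Among 38 glutamate receptors and auxiliary subunits 17 were called lower and 2 higher, with a median of -0.13, and 9 were lower without the choroid-high libraries. Gria1 and Gria2, the main subunits of hippocampal AMPA receptors, were not called, with log2 fold changes of -0.06 (SE 0.04) and 0.02 (SE 0.03). Gria3 was at -0.28 (DESeq2 adjusted p 7.79e-12, SE 0.04), with 3963 to 4619 normalized counts in controls (median 4206) and 3295 to 3849 in CBP-ifKOs (median 3572). The metabotropic receptor Grm3 was lower at -0.38 and the delta receptor Grid1 at -0.27. Of 22 genes for GABA receptors, synthesis, transport and scaffold 9 were called lower and 0 higher, with a median of -0.10 (-0.17 with lane as a term), and 21 of the 22 had a log2 fold change below 0. Gabra5, a subunit of extrasynaptic GABA-A receptors that is abundant in the hippocampus, had 2423 to 2710 in controls and 1532 to 2006 in CBP-ifKOs (normalized counts, medians 2562 and 1737) and differed by -0.55 (DESeq2 adjusted p 1.03e-27, SE 0.05), with no overlap of the genotypes. Gabra2 and Gabrb2 were lower at -0.12 and -0.19.

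Ion channels set the excitability of neurons, and potassium channels act to dampen it. Of 76 potassium channel genes 34 were called lower and 0 higher, with a median of -0.20 (-0.21 with lane as a term), and 11 were separated completely between the genotypes. By edgeR 32 were called lower and 0 higher. Kcnip3, which encodes a calcium-binding partner of A-type channels also known as the repressor DREAM, had 725 to 849 normalized counts in controls (median 805) and 423 to 558 in CBP-ifKOs (median 465) and a log2 fold change of -0.71 (DESeq2 adjusted p 2.84e-30, SE 0.06). Kcnf1, a silent subunit that modifies other voltage-gated channels, was at -0.44 (SE 0.04), and Kcnq5, a subunit of M-type channels, at -0.31 (SE 0.03). Of 32 sodium, calcium and HCN channel genes 16 were called lower and 2 higher, with a median of -0.14 (-0.21 with lane as a term), and 8 were lower without the choroid-high libraries. Cacna1g, a T-type calcium channel, had 485 to 682 in controls and 306 to 409 in CBP-ifKOs (normalized counts, medians 575 and 349) and Scn4b, an auxiliary sodium channel subunit, had 142 to 232 normalized counts in controls and 101 to 141 in CBP-ifKOs. Neither gene overlapped between genotypes, and the differences were -0.66 (SE 0.06) and -0.69 (SE 0.09). The higher members were Scn9a at 0.39 (SE 0.09) and Hcn3 at 0.30 (SE 0.11).

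At the presynapse, 31 of 62 genes for synaptic vesicles and their release were called lower and 0 higher, with a median of -0.14, and 12 were separated completely. Of these genes 20 were called lower without the choroid-high libraries. The widely used presynaptic markers Syp and Syn1 were not called, at -0.06 (SE 0.04) and -0.06 (SE 0.15). Nsf, the ATPase that takes SNARE complexes apart, is among the most abundant members, with 12119 to 13588 normalized counts in controls (median 12791) and 9820 to 11145 in CBP-ifKOs (median 10618). It differed little but without overlap, by -0.28 (DESeq2 adjusted p 1.06e-22, SE 0.03). Sv2c, a vesicle glycoprotein, was at -0.69 (SE 0.08). On the postsynaptic side 21 of 39 scaffold genes were called lower and 0 higher, with a median of -0.14 (-0.22 with lane as a term), and 11 were lower without the choroid-high libraries. The largest difference among those named was in Ankrd63, with 134 to 192 in controls and 70.7 to 108 in CBP-ifKOs (normalized counts, medians 148 and 86.2), at -0.81 (DESeq2 adjusted p 1.38e-14, SE 0.10). Abi1 and Lzts1 were lower at -0.25 and -0.28, and of the membrane-associated guanylate kinases Dlg2 was lower at -0.21 while Dlg1 was not called at -0.04.

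Adhesion molecules and secreted organizers that align both sides of the synapse were lower in 38 of 69 genes and higher in 3, with a median of -0.15, and without the choroid-high libraries in 21 and 1. Beside C1ql2, the class held Nptx2, a pentraxin that clusters AMPA receptors, and Igsf21, a partner of neurexins at inhibitory synapses. Nptx2 had 93.5 to 231 normalized counts in controls (median 122.6) and 42.3 to 73.6 in CBP-ifKOs (median 55.0), Igsf21 had 118 to 151 in controls and 53.2 to 87.2 in CBP-ifKOs (normalized counts, medians 139 and 65.0), and neither overlapped between genotypes. Their log2 fold changes were -1.31 (SE 0.12) and -0.99 (SE 0.10). Nrxn2, a presynaptic neurexin, was lower at -0.28 (0.11 within lane 4), and Nptx1, Lrrtm4 and Tenm1 were called higher at 0.15, 0.17 and 0.13. Within lane 4 Lrrtm4 was at -0.007 and Tenm1 at -0.02, and Tenm1 had a log2 fold change of -0.004 with lane as a term. Cadherins and protocadherins were divided, with 17 of 85 called lower, 14 higher and a median of 0.01, which was -0.07 with lane as a term. Without the choroid-high libraries 12 were lower and 7 higher and the median was 0.00. Lower members included genes outside the clusters (Cdh13 at -0.48, Pcdh20 at -0.36 and Pcdh15 at -0.40), while the 3 named higher members, Pcdhb10, Pcdhb9 and Pcdhb7 at 0.53, 0.41 and 0.39, belong to the clustered beta protocadherins, whose similar sequences make the placing of reads uncertain. Axon guidance genes were lower in 20 of 68 and higher in 5, with Sema3e at -0.54 (SE 0.04), Sema7a at -0.48 and Efnb3 at -0.48 on the lower side and Plxna3 at 0.33 on the higher side.

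**Figure D3:**
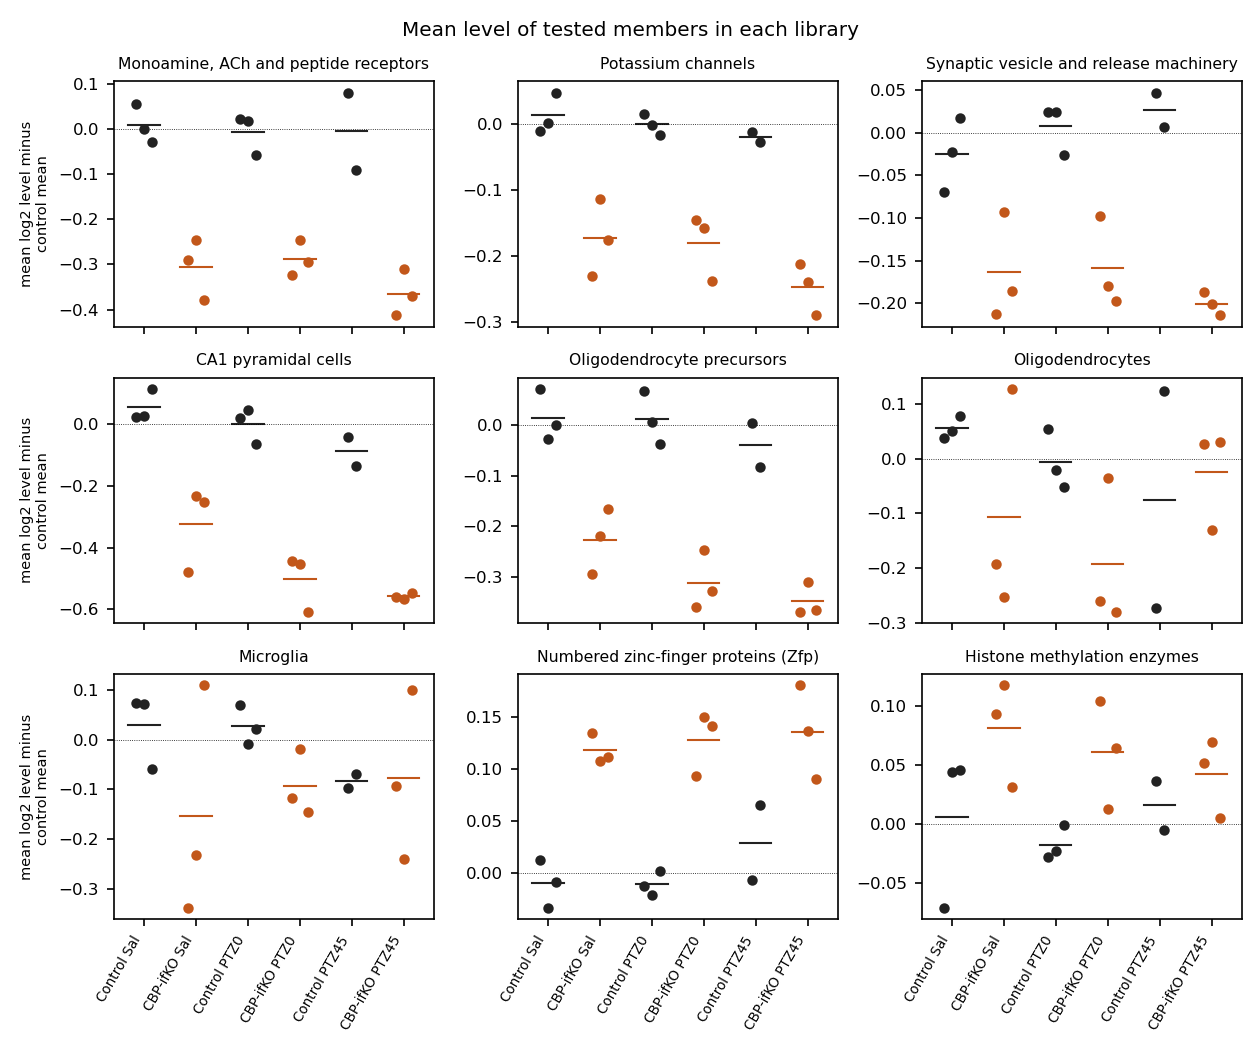
Mean level of the tested members of selected classes in each of the 17 libraries (mean log2 of normalized counts plus 1, minus the mean of all 8 controls, y axis) in the 6 groups (x axis), controls in black and CBP-ifKOs in orange, with lines at the group means. For monoamine, acetylcholine and peptide receptors the controls lie between -0.09 and 0.08 and the CBP-ifKOs between -0.41 and -0.25, and for numbered zinc-finger proteins between -0.03 and 0.07 and between 0.09 and 0.18.

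Among genes for calcium/calmodulin kinases and calmodulins, the calcium sensors of the spine and nucleus, 14 of 23 were called lower and 1 higher, with a median of -0.16. Camkk2, the kinase that activates Camk4 and Camk1 enzymes, had 1534 to 1668 normalized counts in controls (median 1592) and 926 to 1121 in CBP-ifKOs (median 979.8), and Camk1g had 254 to 298 in controls and 120.4 to 154 in CBP-ifKOs (normalized counts, medians 267 and 128). Both were separated completely, at -0.67 (DESeq2 adjusted p 1.71e-57, SE 0.04) and -1.04 (DESeq2 adjusted p 2.28e-49, SE 0.07). Camk4, which phosphorylates CREB and CBP in the nucleus, was at -0.52 (SE 0.05), with 837 to 1035 normalized counts in controls (median 903) and 602 to 721 in CBP-ifKOs (median 635). Camk2a itself, the promoter of which drives the recombinase, was not called at 0.14 (SE 0.07), and Camk2n2, an inhibitor of that kinase, was the higher member at 0.44 (SE 0.07). Of 31 genes for protein kinase C, diacylglycerol and phospholipase C 9 were called lower and 3 higher. Their median of -0.085 was -0.16 with lane as a term and -0.13 without the choroid-high libraries. Prkcb, an abundant neuronal protein kinase C, had 7029 to 7924 in controls and 5003 to 5866 in CBP-ifKOs (normalized counts, medians 7401 and 5574) and a log2 fold change of -0.44 (DESeq2 adjusted p 2.04e-34, SE 0.03). The diacylglycerol kinases Dgki and Dgkb were lower at -0.43 and -0.33, and Dgka and Dgkq were higher by 0.20 and 0.17.

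In the cAMP pathway 27 of 77 genes were called lower and 5 higher (median -0.07, and 16 lower and 1 higher without the choroid-high libraries), including the phosphodiesterase Pde1a at -0.30, Rapgef5 at -0.21 and the anchoring protein Akap11 at -0.15, with Akap8 at 0.18 and Pde7b at 0.23 on the other side. In the MAP kinase pathway 30 of 99 were called lower and 7 higher (median -0.09), and 20 and 2 without the choroid-high libraries. Dusp4, a phosphatase that switches MAP kinases off, had 190.4 to 291 normalized counts in controls (median 211) and 116 to 153 in CBP-ifKOs (median 126) and differed by -0.76 (SE 0.09). Rasal1 and Rasgef1a, regulators of Ras-like GTPases, were lower at -0.64 and -0.54, and Map4k2 was higher by 0.35. Of 43 regulators of G protein signalling and G protein subunits 13 were lower and 5 higher. Their median of -0.08 was -0.02 with lane as a term and -0.05 without the choroid-high libraries. Rgs14, which restrains plasticity in CA2, had 812 to 1031 in controls and 351 to 528 in CBP-ifKOs (normalized counts, medians 867 and 414), and Rgs4 had 1607 to 3437 normalized counts in controls (median 1952) and 1063 to 1407 in CBP-ifKOs (median 1197). The genotypes did not overlap in either gene, at -1.09 (DESeq2 adjusted p 2.25e-43, SE 0.08) and -0.87 (DESeq2 adjusted p 1.2e-25, SE 0.08), and Gng4 and Gnal were called higher at 0.29 and 0.20.

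Genes that neuronal activity switches on formed the class with the largest share of lower members. Of 24 immediate early genes, which are transcribed within minutes of stimulation without new protein, 20 were called lower and 0 higher, with a median of -0.90 (-2.06 with lane as a term). Fewer, 13, were called without the choroid-high libraries, at a median of -0.91. The difference was not the same in every treatment, with medians of -0.31 in Sal, -0.39 in PTZ0 and -2.14 in PTZ45. The value with lane as a term is made from these differences and takes in their dependence on treatment. In single libraries the summed level of these genes was 5193 to 35742 normalized counts in controls and 4250 to 7166 in CBP-ifKOs. Several of these genes were picked by the study from these same samples, so their count is not independent evidence of a direction. Jun had 517 to 1193 in controls and 365 to 486 in CBP-ifKOs (normalized counts, medians 612 and 439.5) and Nr4a2 had 426 to 1848 normalized counts in controls (median 498) and 304 to 474 in CBP-ifKOs (median 341), with log2 fold changes of -0.70 (DESeq2 adjusted p 7.53e-05, SE 0.15) and -0.94 (DESeq2 adjusted p 5.18e-05, SE 0.20), and in both the highest values were those of the control PTZ45 libraries. The genotypes did not overlap in Jun and overlapped in Nr4a2. Fos was called at -1.53 (DESeq2 adjusted p 0.00247, SE 0.41), and Fosb was not called, at -1.51 (DESeq2 adjusted p 0.054, SE 0.59).

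An interaction test asked whether the genotype difference depended on treatment. Once genotype and treatment are in the fit, lane and the interaction describe the same differences between groups. They cannot be told apart here. DESeq2 called 78 of 22491 genes (0.347%), and 403 had an unadjusted p under 0.05. All 78 had their lowest log2 fold change in PTZ45, 20 of them were immediate early genes, and 43 were among the genes called lower over all treatments. None of the 1449 higher genes was called in the interaction by DESeq2, where 7 had an unadjusted p under 0.05, and 0 were called by edgeR. Among the genes named here, Ptgs2, the inducible cyclooxygenase, had log2 fold changes of -0.43 in Sal, -0.37 in PTZ0 and -2.20 in PTZ45 (adjusted p 8.38e-37 for the interaction by DESeq2), and Rgs4 had -0.67, -0.73 and -1.28 (adjusted p 0.00112 by DESeq2). Eif4a1, a helicase of translation initiation, had -0.10, -0.16 and -0.79 (adjusted p 4.83e-05 by DESeq2).

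Late response and plasticity genes, which follow the immediate early genes, had negative medians in each treatment. Of 13 tested 9 were called lower and 0 higher, the median was -0.43, and 7 were separated completely, among genes of which the study also took several from these samples. Their medians were -0.36 in Sal, -0.47 in PTZ0 and -0.63 in PTZ45. Bdnf, the neurotrophin of activity-dependent plasticity, had 535 to 738 in controls and 297 to 398 in CBP-ifKOs (normalized counts, medians 585 and 350.3), without overlap and with a log2 fold change of -0.82 (DESeq2 adjusted p 1.39e-54, SE 0.05). Neuropeptides were lower in 7 of 18 genes and higher in 0 (median -0.37), and the summed level of the class was 4303 to 4853 normalized counts in controls and 2730 to 3795 in CBP-ifKOs. Grp, gastrin-releasing peptide, had 168 to 238 normalized counts in controls (median 194) and 68.7 to 97.4 in CBP-ifKOs (median 81.2), and Pdyn, the dynorphin precursor of granule cells, had 83.7 to 116 in controls and 29.1 to 54.0 in CBP-ifKOs (normalized counts, medians 95.2 and 43.0). The genotypes did not overlap, with differences of -1.22 (SE 0.10) and -1.14 (SE 0.12). Among granins and the enzymes that cut prohormones 6 of 11 were lower (median -0.12, which was -0.24 with lane as a term and -0.07 without the choroid-high libraries), with Pcsk1 at -0.57 (SE 0.07), Vgf at -0.56 (SE 0.07) and Pam at -0.24 (SE 0.03), while Chga and Chgb were not called at -0.07 and 0.12. Of 44 growth factor genes and their receptors 11 were lower and 1 higher. Acvr1c, an activin receptor, had 627 to 794 normalized counts in controls (median 721) and 342 to 507 in CBP-ifKOs (median 425) and differed by -0.73 (DESeq2 adjusted p 1.41e-37, SE 0.06), Gfra2, a neurturin receptor, was lower at -0.65, and Acvr2b was the higher member at 0.41.

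Promoter sequences were available for 11941 of the 18668 tested genes with a unique symbol, as windows from 250 bases before to 50 after the start site in GRCm38.p6 of RefSeq. They were searched on both strands for the cAMP response element TGACGTCA, the full site that CREB binds. It stood in the promoters of 60 of 1579 genes called lower (3.80%), 43 of 1107 called higher (3.88%) and 404 of 11941 tested (3.38%), and in 2.03% of all 27025 genes of the table. Within the immediate early list 3 of 20 genes with a window had the full site (15%), and 16 had at least a partial site, TGACG or CGTCA (80%), against 33.5% of all genes tested. Among potassium channels 0 of 54 genes with a window had the full site and 15 a partial one (27.8%), and among synaptic adhesion genes 5 of 50 had the full site (10%) and 13 a partial one (26%). Of the numbered zinc-finger proteins 13 of 293 had the full site (4.44%) and 98 a partial one (33.4%). For late response genes the numbers were 2 and 5 of 9, and for neuropeptides 2 and 8 of 13. A full site also counts as a partial site. TATAAA was found for 10.1% of the lower, 7.23% of the higher and 9.23% of all tested genes, and the AP-1 motif TGANTCA for 7.28%, 4.16% and 6.16%. The Egr motif GCGTGGGCG stood in 1.65%, 1.26% and 1.32%. When named genes with the full site were listed, windows on the chromosome of Camk2a were left out. Of 248 named genes with a window, counted on all chromosomes, 7 called lower (Dusp1, Hlf, Irf2bpl, Kif5c, Klc1, Ldha and Pcsk1) and 3 not called (Chgb, Flt1 and Syn1) had the full site before the start outside that chromosome. Of these, 3 called and 2 not called are shown with 30 bases on each side, or up to the start site where that comes first (Kif5c), to let the flanks be compared between genes that were and were not called, each 5′ to 3′ on the strand of the gene with the site in capitals. They lie at chr13:75089749-75089816 on the plus strand for Pcsk1 (78 bases before the start), chr17:26508578-26508645 on the minus strand for Dusp1 (143 bases before the start), chr2:49619230-49619285 on the plus strand for Kif5c (26 bases before the start), chr2:132781540-132781607 on the plus strand for Chgb (72 bases before the start) and chrX:20921040-20921107 on the minus strand for Syn1 (159 bases before the start), where the distance is that from the first base of the site to the start.
Pcsk1: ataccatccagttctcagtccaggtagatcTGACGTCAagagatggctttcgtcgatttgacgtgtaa
Dusp1: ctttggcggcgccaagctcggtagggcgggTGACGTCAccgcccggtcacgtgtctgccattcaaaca
Kif5c: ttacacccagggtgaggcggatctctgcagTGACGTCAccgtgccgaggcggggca
Chgb: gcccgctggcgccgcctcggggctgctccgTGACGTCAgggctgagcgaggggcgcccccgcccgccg
Syn1: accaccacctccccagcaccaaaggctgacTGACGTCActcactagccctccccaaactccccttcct
A window without these letters is only a window without them, and no binding was measured here. Over all treatments Pcsk1, Dusp1 and Kif5c had log2 fold changes of -0.57, -0.94 and -0.22, and Chgb and Syn1 had 0.12 and -0.06.

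In the classes of cell structure and transport more genes were called lower than higher. Of 32 tubulins and microtubule-associated proteins 13 were called lower and 0 higher (median -0.13), and 8 were lower without the choroid-high libraries. Map4 had 6235 to 7161 in controls and 5220 to 5722 in CBP-ifKOs (normalized counts, medians 6914 and 5607), without overlap, and differed by -0.31 (SE 0.03), and Stmn2 and Tubb2b were lower at -0.29 and -0.42. Actin cytoskeleton genes were lower in 27 of 75 and higher in 2 (13 and 1 without the choroid-high libraries), with Myo5b, a recycling endosome motor, at -0.37 and Tpm1 at -0.30. Among 44 kinesins and dyneins 6 were lower and 3 higher (3 and 1 without the choroid-high libraries), close to the shares over all genes, with Kif5c, an axonal kinesin, at -0.22 (SE 0.03). Rab GTPases had 11 lower and 1 higher of 63 (7 lower without the choroid-high libraries), led by Rab15 at -0.41 (SE 0.04). Of 110 genes of the extracellular matrix and perineuronal net 25 were lower and 5 higher. Their median of -0.07 was -0.002 with lane as a term, 0.06 within lane 4 and -0.15 without the choroid-high libraries. Thbs3, a thrombospondin, had 274 to 330.4 normalized counts in controls (median 303) and 150.4 to 185 in CBP-ifKOs (median 166) and differed by -0.86 (DESeq2 adjusted p 9.3e-39, SE 0.06), and Col11a1 was higher by 0.55 (SE 0.07), with 219.7 to 284 in controls and 326 to 423 in CBP-ifKOs (normalized counts, medians 244 and 340.1). Col12a1 and Col5a1 were lower at -0.83 and -0.62.

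Classes of energy metabolism and protein synthesis differed among each other, with more lower than higher members in glycolysis, the nuclear respiratory chain and the cytosolic ribosome. Of 35 genes of glycolysis and the citric acid cycle 16 were called lower and 0 higher (median -0.11), and 3 were called lower without those libraries (median -0.09). Aldoa, Aldoc and Ldha were lower at -0.23, -0.24 and -0.24. The nuclear genes of the respiratory chain had 18 of 82 lower and 0 higher (median -0.12), and 5 lower without those libraries (median -0.08), with Ndufa5 at -0.35 and Atp5k at -0.29. None of the 7 respiratory chain genes of the mitochondrial genome that could be tested was called by DESeq2 or by edgeR, 0 were higher and 0 lower at an unadjusted p under 0.05, and their median was 0.10. Other fits differed, with 4 of the 7 called higher in PTZ0 alone (median 0.28) and 3 without the PTZ45 libraries, while the median was -0.18 in PTZ45 alone and -0.31 with lane as a term, where all 7 lay below 0. The median was 0.06 without the choroid-high libraries. Cytosolic ribosomal protein genes were lower in 15 of 73 (median -0.09, and -0.04 with lane as a term) and in 3 without those libraries. Rpsa and Rpl21, at -0.70 and -0.48, have near-identical pseudogene copies that make their counts uncertain, and Rps19 was at -0.30. Mitochondrial ribosomal proteins had 1 higher and 0 lower of 76, the proteasome 2 lower of 38 and the aminoacyl-tRNA synthetases 1 lower of 20, all below the shares over all genes. Translation factors were divided, with 9 higher and 7 lower of 64, and with 5 and 2 without the choroid-high libraries. Eif2ak2, the kinase PKR that double-stranded RNA activates, had 90.2 to 156 normalized counts in controls (median 117) and 148 to 221 in CBP-ifKOs (median 192) and was higher by 0.70 (DESeq2 adjusted p 1.32e-10, SE 0.10). The genotypes overlapped, and the gene was also called higher with lane as a term.

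The numbered zinc-finger proteins, many of which are DNA-binding repressors with KRAB domains, were the class with the largest share of higher members. Of 354 tested 104 were called higher and 15 lower, a share of 29.4% against 7.76% over all genes, with a median of 0.12. The median was 0.11 with lane as a term, where none was called by DESeq2 and 12 were higher and 8 lower at an unadjusted p under 0.05, and 0.12 without the choroid-high libraries, where 48 were called higher and 9 lower. By edgeR 111 were called higher and 14 lower. In 18 of the 354 tested all CBP-ifKO libraries lay above all controls, against 0.83% of all genes tested. Zfp157 had 488 to 545 in controls and 568.3 to 692 in CBP-ifKOs (normalized counts, medians 499 and 636) and Zfp92 had 47.8 to 73.9 normalized counts in controls (median 54.6) and 79.97 to 109.6 in CBP-ifKOs (median 93.8), neither with overlap, and they differed by 0.32 (DESeq2 adjusted p 3.58e-11, SE 0.04) and 0.73 (DESeq2 adjusted p 3.81e-09, SE 0.11). Zfp317 was higher by 0.22 (SE 0.04). The lower members Zfp365, Zfp804a and Zfp91, at -0.40 (SE 0.04), -0.33 (SE 0.06) and -0.21 (SE 0.04), are zinc-finger proteins without a KRAB domain. The median exonic GC content of the class was 45.6%, against 48.7% of all genes tested, and after correction for GC content 100 were called higher and 14 lower.

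The shares of higher members in other nuclear classes were smaller. Histone methylation enzymes had 10 of 57 higher (17.5%) and 1 lower (median 0.06, and 0.03 with lane as a term), and 5 higher without the choroid-high libraries, with the demethylases Kdm5c and Kdm1b at 0.18 (SE 0.04) and 0.27 (SE 0.07) and the methyltransferase Kmt5b at 0.16 (SE 0.03). Splicing factors had 18 of 134 higher (13.4%) and 3 lower (median 0.02, and 0.04 with lane as a term), and 8 higher at a median of 0.04 without the choroid-high libraries, with Srsf6 at 0.19, Ddx17 at 0.17 and Rbm5 at 0.15 higher and Hnrnpll at -0.20 lower. Mediator and RNA polymerase II genes had 5 of 82 higher (6.10%) and 1 lower (median 0.03), shares below those over all genes, led by Med12 at 0.33 (SE 0.06), and 3 were separated upward. Chromatin remodellers had 6 higher and 4 lower of 43, and 3 and 1 without the choroid-high libraries. The writers, erasers and readers of acetylation, the class of CBP itself, were evenly divided, with 7 of 42 called in each direction and a median of 0.05 (0.02 with lane as a term), and with 4 in each direction without the choroid-high libraries. Beside Crebbp the lower members included the deacetylases Hdac9 at -0.38 (SE 0.05) and Hdac5 at -0.33 (SE 0.06), the latter at 0.04 within lane 4, and the higher ones Kat2b, an acetyltransferase, at 0.31 (SE 0.07), the deacetylases Sirt1 at 0.28 (SE 0.06) and Hdac6 at 0.18 (SE 0.05), and Ep300 at 0.25 (SE 0.08). Replication-dependent histones had 6 of 29 lower and 0 higher and 2 lower without the choroid-high libraries, and their similar sequences make their counts uncertain.

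Neuronal transcription factors had shares close to those over all genes, with 8 of 81 higher and 9 lower, and with 5 and 4 without the choroid-high libraries. Neurod2 was higher by 0.29 (SE 0.07) and Lhx2, Nfib and Tcf4 lower at -0.26, -0.21 and -0.16. RNA-binding regulators of neurons had 8 of 36 lower and 0 higher, among them Rbfox3, which encodes the neuronal marker NeuN, at -0.31 (SE 0.06). Of 24 circadian clock genes 8 were lower and 1 higher, with Arntl at -0.23 and Hlf at -0.34, and with Arntl2 higher by 0.34. Dbp was lower at -0.39, a value that was 0.12 with lane as a term.

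Transporters, stress responses and immune genes made up the remaining classes. Solute carriers, the largest of these, had 29 of 275 called in each direction (median 0.02, and 0.06 with lane as a term) and 14 in each direction without the choroid-high libraries, including the sodium/calcium exchanger Slc8a1 at -0.38 (DESeq2 adjusted p 3.41e-27, SE 0.03) and the zinc transporter Slc39a10 at -0.28 on the lower side and Slc25a40 and Slc38a9 at 0.37 and 0.24 on the higher side. Lysosome and autophagy genes had 10 of 56 higher and 4 lower, with a median of 0.02 that was 0.08 with lane as a term. After correction for GC content 20 of them were called higher (median 0.07), and without the choroid-high libraries 4 were higher and 1 lower (median 0.06). The vacuolar ATPase had 4 higher and 2 lower of 21. The lysosomal protease gene Ctsl was higher by 0.21 and the vacuolar ATPase gene Atp6ap1 by 0.19, and Atp6v1a was lower at -0.20. Heat shock proteins had 11 lower and 6 higher of 81, and 3 in each direction without the choroid-high libraries. Hsph1 was lower at -0.32 (SE 0.04), and Hspa5, the chaperone of the endoplasmic reticulum, was higher by 0.28 (SE 0.05). Genes of metallothioneins and oxidative stress had 4 lower and 3 higher of 30, and 1 and 0 without the choroid-high libraries. Mt1 and Mt2 were lower at -0.39 and -0.42, and the regulator of antioxidant genes Nfe2l2 was higher by 0.29. Among genes of the unfolded protein response 7 of 28 were lower and 4 higher, with Atf4, Atf6 and Trib2 at -0.27, -0.25 and -0.48. Cholesterol genes had 6 lower and 1 higher of 26, including the regulator Srebf2 at -0.28. Interferon response and antigen presentation genes had 6 called in each direction of 62, and 4 lower and 3 higher without the choroid-high libraries. Complement and cytokine genes had 7 of 18 lower and 0 higher, with 3 lower without the choroid-high libraries. Serpina3n, an inhibitor that reactive astrocytes make, had 241 to 458 in controls and 108 to 159 in CBP-ifKOs (normalized counts, medians 336 and 135), without overlap, and differed by -1.33 (DESeq2 adjusted p 1.85e-28, SE 0.12).

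**Figure D4:**
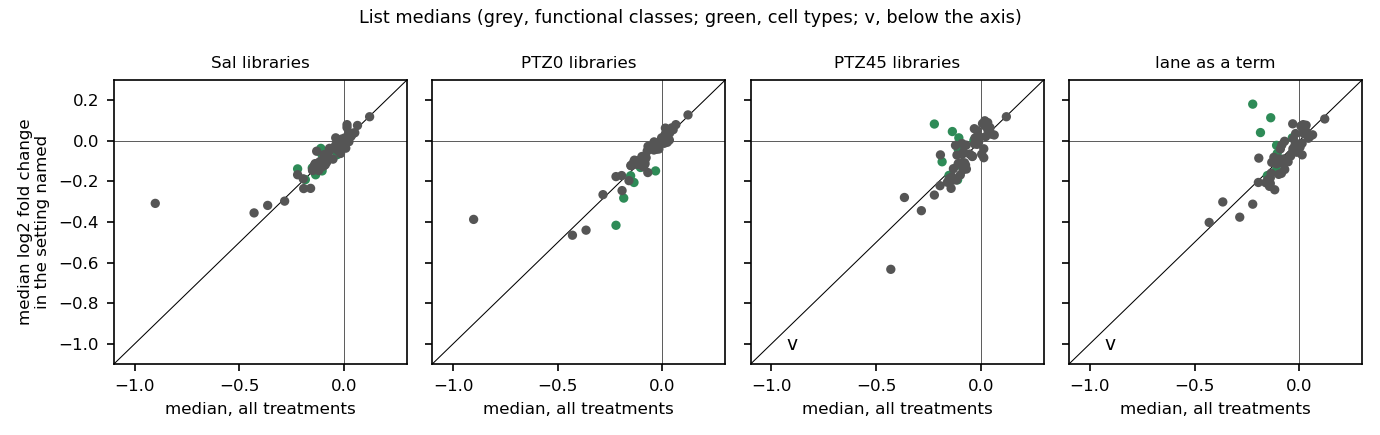
Median log2 fold change of each list with at least 10 tested members over all treatments (x axis) against its median within Sal, PTZ0 or PTZ45 libraries or with lane as a term (y axis), functional classes in grey and cell types in green, with the line of equal values. Of 53 classes 40 have a negative and 13 a positive median over all treatments, and the sign is the same for 49 in Sal, 50 in PTZ0, 46 in PTZ45 (whose libraries are part of the median over all treatments) and 47 with lane as a term, against 9, 9, 5 and 5 of the 9 cell type lists.

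Class medians were then compared between treatments, which share no libraries. Of 53 classes with at least 10 tested members the sign of the median was the same for 50 in Sal and PTZ0, 42 in Sal and PTZ45, 45 in PTZ0 and PTZ45 and 42 in all 3. Of these 53 classes 40 had a negative and 13 a positive median over all treatments. This sign, to which each treatment's own libraries contribute, was the same for 49 of them in Sal alone, 50 in PTZ0 alone and 46 in PTZ45 alone, 47 with lane as a term (not for cadherins, kinesins, chromatin remodellers, the proteasome, the vacuolar ATPase and the metallothionein class) and 43 without the choroid-high libraries. All 9 cell type lists with at least 10 tested markers had a negative median over all treatments, in Sal and in PTZ0, against 5 of 9 in PTZ45 and 5 of 9 with lane as a term. Monoamine, acetylcholine and peptide receptors had medians of -0.30, -0.27 and -0.34 in Sal, PTZ0 and PTZ45, potassium channels -0.19, -0.17 and -0.22, and numbered zinc-finger proteins 0.12, 0.13 and 0.12.

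All 9 markers of CA1 pyramidal cells lay below 0, 8 were called lower and 0 higher, and the median was -0.43. Their summed level was 7426 to 8416 normalized counts in controls (median 7826) and 5244 to 6545 in CBP-ifKOs (median 5717), without overlap. Wfs1, a protein of the endoplasmic reticulum that marks CA1, had 620.5 to 886 normalized counts in controls (median 709) and 287 to 442 in CBP-ifKOs (median 334) and a log2 fold change of -1.105 (DESeq2 adjusted p 7.8e-48, SE 0.07). Mpped1 was lower at -0.49 (SE 0.06) and Man1a at -0.34 (SE 0.04). Pou3f1 was lower at -0.29 (SE 0.09), which was 0.15 within lane 4. Of 7 CA2 markers 4 were lower and 1 higher, with a summed level of 2258 to 2608 in controls and 1493 to 1787 in CBP-ifKOs over 8 markers. Beside Rgs14, Necab2 was lower at -0.65 (SE 0.06) and Amigo2 at -0.27 (SE 0.08). Of 7 CA3 markers 2 were lower, Cpne4 at -0.44 (SE 0.05) and Grik4 at -0.18 (SE 0.06), and the summed levels overlapped.

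Dentate granule cell markers were called in both directions. Of 13 tested 7 were lower and 3 higher, and their summed levels overlapped, at 12259 to 14429 normalized counts in controls and 11992 to 13548 in CBP-ifKOs. Prox1, the transcription factor that defines these cells, had 1070 to 1554 in controls and 1389 to 1830 in CBP-ifKOs (normalized counts, medians 1395 and 1655) and was higher by 0.26 (DESeq2 adjusted p 0.000439, SE 0.06), with overlap. Npnt had 206 to 276 normalized counts in controls (median 240.1) and 307 to 412 in CBP-ifKOs (median 353), without overlap, and was higher by 0.59 (SE 0.08), and Lct was higher by 0.75 (SE 0.09). Trpc6, a cation channel, had 817 to 1036 in controls and 472 to 599 in CBP-ifKOs (normalized counts, medians 911 and 524) and was lower at -0.77 (DESeq2 adjusted p 1.17e-51, SE 0.05), and Tdo2 was lower at -0.96 (SE 0.13), both without overlap. The general markers of excitatory forebrain neurons were divided as well, with 4 of 16 lower and 2 higher and a summed level of 59696 to 71116 in controls and 62660 to 74133 in CBP-ifKOs. Slc17a7, the vesicular glutamate transporter of these neurons, was not called at 0.10 (SE 0.06), while Cck and Nrgn were lower at -0.62 (SE 0.09) and -0.37 (SE 0.06). Of 4 markers of mossy cells 2 lay above and 2 below 0, with a median of -0.03 (-0.39 with lane as a term and -0.10 without the choroid-high libraries). Calb2, which interneurons also express, was called lower at -0.68 (SE 0.10), and Calcrl at -0.17, Csf2rb2 at 0.38 and Drd2 at 0.12 were not called. Their summed level was 471.9 to 623.3 normalized counts in controls and 300.0 to 462.2 in CBP-ifKOs.

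**Figure D5:**
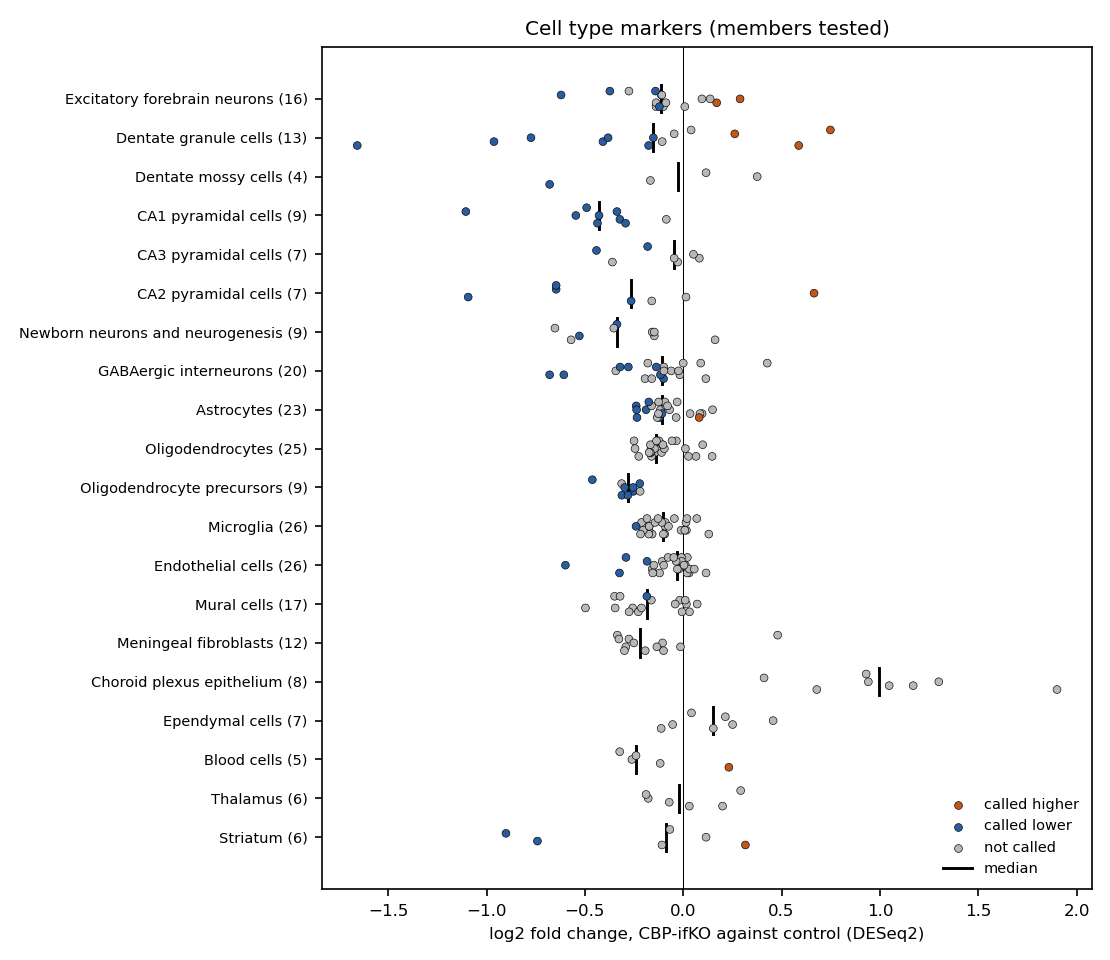
Log2 fold change of each tested marker gene (points, x axis) in 20 cell type lists, coloured by call, with the median of each list. CA1 markers (median -0.43) and oligodendrocyte precursor markers (median -0.28) all lie below 0, while no oligodendrocyte marker is called over all treatments.

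Markers of cells other than excitatory neurons were read next, in which the Camk2a promoter is not known to be active. Of 20 interneuron markers 7 were lower and 0 higher, with Gad1 at -0.14 (SE 0.03) and Gad2, which was not called, at 0.00 (SE 0.04). Of 23 astrocyte markers 7 were lower and 1 higher, but 2 were lower without the choroid-high libraries, and the median went from -0.11 to -0.06 in that fit and to -0.02 with lane as a term. Slc1a3, an astrocyte glutamate transporter, was at -0.17 (SE 0.03), and Aqp4 and Gfap were not called at -0.03 (SE 0.06) and -0.13 (SE 0.07). None of 25 oligodendrocyte markers was called by DESeq2 or by edgeR, and 0 were higher and 8 lower at an unadjusted p under 0.05, with a median of -0.14 that was 0.11 with lane as a term and -0.07 without the choroid-high libraries. In reduced fits 4 of 22 were called lower in PTZ0 alone and 7 of 25 without the PTZ45 libraries. Of the microglial markers 1 of 26 was called lower (Olfml3 at -0.24, and 0.15 with lane as a term). Endothelial markers had 4 lower of 26, including Cd34 at -0.60 (SE 0.07), with 466.0 to 663 normalized counts in controls (median 574) and 323 to 438 in CBP-ifKOs (median 374), while Cldn5 and Flt1 were not called at 0.02 (SE 0.09) and 0.02 (SE 0.06). Mural cells had 1 lower of 17, Rgs5 at -0.18 (SE 0.05). Meningeal fibroblasts and ependymal cells had 0 called of 12 and 7 by DESeq2 and by edgeR, but 3 fibroblast markers were called lower without the choroid-high libraries. At an unadjusted p under 0.05 fibroblasts had 0 higher and 1 lower and ependymal cells 0 higher and 0 lower.

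Markers of oligodendrocyte precursors, the dividing glia from which oligodendrocytes arise, all lay below 0. Of 9 tested 7 were lower and 0 higher, with a median of -0.28 (-0.29 with lane as a term), and 4 were called without the choroid-high libraries. Their summed level was 3105 to 3251 normalized counts in controls (median 3176) and 2461 to 2740 in CBP-ifKOs (median 2593), without overlap. Pdgfra, the receptor that defines these cells, had 939 to 1045 in controls and 689 to 908 in CBP-ifKOs (normalized counts, medians 1022 and 841) and differed by -0.30 (DESeq2 adjusted p 5.9e-07, SE 0.05). Vcan and Neu4 were lower at -0.22 (SE 0.05) and -0.46 (SE 0.11). Of 9 markers of newborn neurons 8 lay below 0, with a median of -0.34 (-0.11 with lane as a term), and 7 were lower at an unadjusted p under 0.05. By DESeq2 2 were called lower, Sox11 at -0.53 (SE 0.08) and Mki67 at -0.34 (SE 0.10), the latter at 0.13 with lane as a term, and Dcx was not called at -0.16 (SE 0.07). Cdk1 and Draxin were at 0 in some library.

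Markers of neighbouring tissue varied between libraries. Thalamic markers, with Gbx2 at 0 in some library, had a summed level of 738.4 to 1023 normalized counts in controls and 588 to 917.9 in CBP-ifKOs, with 0 of 6 called by DESeq2 or edgeR, and 0 higher and 0 lower at an unadjusted p under 0.05. Striatal markers had 2 of 6 lower and 1 higher, with Drd1 at -0.74 (SE 0.11) and Rgs9 at 0.32 (SE 0.07). Their part in the results of other classes was not tested.

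Some properties differed between genes called in each direction. Genes called lower had a median span of 39.8 kb and genes called higher 25.4 kb, against 17.9 kb over all genes tested, and medians of 679.5, 274.0 and 160.2 normalized counts, so that called genes were also the more abundant ones. Within the highest of 4 equal strata of expression 29.72% of genes with a span above the stratum's median were called lower and 20.6% of those below it, while 8.18% and 8.57% were called higher. In the other 3 strata, from the lowest up, genes above the median span were called higher in 2.84%, 9.82% and 13.96% and those below it in 1.33%, 6.13% and 11.22%, and called lower in 4.13%, 7.80% and 11.86% against 2.15%, 6.39% and 9.76%. The median exonic GC content was 50.5% in lower genes, 47.6% in higher genes and 48.7% over all genes tested. After correction for GC content 1614 genes were called higher and 2070 lower, 1335 and 1947 of them called in the same direction before. By gene type, 1979 of 14089 protein-coding genes were lower and 1282 higher, as were 52 and 34 of 550 lincRNAs.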

How the data were processed

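RNA-seq of whole mouse hippocampus gave 1 count table, and the authors deposited raw counts per gene. Reads had been mapped to GRCm38 and counted over Ensembl exons with Rsubread after reads of low mapping quality were removed, and the submitters' processing notes name FastQC 0.11.8, Trim Galore 0.6.4, STAR 2.6.1 and DESeq2 1.30.1. Whether counting used strand is not given in the sources used here. Of 18 count columns 17 matched a sample's labels and 1 was not used. The table lists 55471 genes, of which 39260 had a count, and 99.6% of its identifiers were in the GENCODE M21 annotation used for names, GC content and length. Library totals were 5831992 to 18735643 counts.

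CBP-ifKO and control libraries were compared in R 4.3.3 with the Wald test of DESeq2 1.42.0, two-sided, with treatment as a term. Benjamini-Hochberg adjustment was over all genes that pass its independent filter and its filter on outlying counts (Cook's distance). The threshold was an adjusted p of 0.05. The interaction of genotype and treatment was tested by likelihood ratio. Normalized counts are counts divided by the DESeq2 size factor. A log2 fold change is that of CBP-ifKO against control, so that positive values are higher in CBP-ifKOs. Single-library values in plots are log2 of normalized counts plus 1. Alternatives were edgeR 4.0.16, TMM size factors, a count filter, a surrogate variable (sva 3.50.0), correction for GC content, lane as a term, a replicate block, no treatment term, leaving out each library, single treatments and no PTZ45 libraries. The PTZ45 fit, lane 4 alone and the fit without 5 libraries highest in choroid plexus markers were added after seeing the data. The functional classes and marker lists were chosen with earlier results of these data known. Named genes are Crebbp, Ep300, Esr1 and Arsi, the first 2 genes of each list written gene by gene, in each list and direction up to 3 called members with the smallest adjusted p among those averaging 50 or more normalized counts, and over all genes the 5 called genes per direction with the largest change among those of that level without overlap between genotypes. The test was tested on simulated data with 200 changed genes among 39260, made from the means of these libraries. The 200 were drawn only from genes with an expected mean of at least 50 counts, and no treatment or lane effect was simulated. The test recovered 34.8% of genes changed by 0.25 on the log2 scale, 95.5% of those changed by 0.5 and 100% of those changed by 1, and called 19 unchanged genes. No 2 libraries of a group agreed within counting noise. Genes with near-identical copies, such as histones, ribosomal proteins and clustered protocadherins, have uncertain counts. Of 328 genes named by these rules 134 overlap a gene on the other strand, with which reads may be shared. Promoter sequences are from RefSeq, GRCm38.p6. Some named genes and 1 class are not reported here.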

Additional observations from a re-analysis of the deposited data

Results flagged for a closer look

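Within 50 groups of libraries examined for a single distant sample, 3 sums of marker genes had one, where chance gives about 1 in 20 groups. CBP-ifKO PTZ45 3 was low in summed dentate granule cell markers, at 11992 normalized counts. CBP-ifKO Sal 2 was low in summed CA3 markers, at 2608 normalized counts. Control PTZ0 2 was high in summed choroid plexus markers, at 27899 normalized counts.

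The genotype difference depended on treatment in 8 named genes by the DESeq2 interaction test. For the transcription factors Fos, Fosb, Jun and Nr4a2 the adjusted p was 1.19e-09, 3.21e-29, 5.75e-11 and 6.78e-29. For Ptgs2 it was 8.38e-37, for the phosphatase gene Dusp1 0.000425, for Rgs4 0.00112 and for Eif4a1 4.83e-05. In each the log2 fold change was lowest in PTZ45. Control and CBP-ifKO PTZ45 libraries also differ in lane, and its part in these results cannot be told apart from the interaction.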

How the results depend on the processing

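Limits come first from lane, which nearly follows genotype, and from tissue composition. Against 1449 genes called higher in CBP-ifKOs and 2157 genes called lower in CBP-ifKOs, the numbers were 3 and 132 with lane as a term, 55 and 473 within lane 4, 625 and 1245 without the 5 libraries highest in choroid plexus markers, 40 and 266 in Sal alone, 182 and 670 in PTZ0 alone, and 38 and 430 in PTZ45 alone. Without the PTZ45 libraries 962 were higher and 1573 lower. Leaving out each library gave 1227 to 1481 higher and 1892 to 2218 lower genes. Interaction calls went from 78 to 45 without the 5 libraries highest in choroid plexus markers and to between 49 and 84 with each library left out. Beside fewer libraries in the reduced fits, the cause was not tested. The replicate numbers do not pair the libraries, with a median correlation of deviations of -0.061 between libraries of the same number and 0.031 between others, and with a replicate block 1237 genes were higher and 1986 lower and 70 were called in the interaction. With lane as a term the log2 fold change reversed for Bhlhe22 (-0.005, and -0.061 in PTZ45 alone), Mki67 (0.129), Slc4a4 (-0.0), Olfml3 (0.153), Tenm1 (-0.004), Plcd3 (-0.008), Dusp11 (-0.028), Slc9a4 (-0.043), Dbp (0.118), Dnajb4 (-0.078), Nup210 (-0.096) and Stat2 (-0.118). Within lane 4 it reversed for Pou3f1 (0.154), Ly6c1 (0.027), Nrxn2 (0.111), Lrrtm4 (-0.007), Tenm1 (-0.023), Hdac5 (0.039), Chd9 (-0.012), Hist1h4h (0.289) and Dnajb4 (-0.029), and without a treatment term the log2 fold change of Fos was 1.188, against a negative value with it. The cause of these reversals was not tested. Of the alternative values of the named genes reported 8934 kept direction and call, 1211 kept direction but were no longer called and 31 were newly called. Depth and the number of libraries limit the detection of differences of 0.25 or less.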

Other observations

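Choroid plexus markers had a median log2 fold change of 0.99 over the 8 tested, which was 2.75 with lane as a term and -0.20 without the 5 libraries highest in them, where 4 of the 8 had an adjusted p and 1 was called higher. Markers of meningeal fibroblasts, which lie beside the choroid plexus, had a median of -0.22 with all libraries and -0.75 without those 5, where 3 of the tested markers were called lower. Their median was positive in other fits, at 0.18 with lane as a term, 0.14 within lane 4 and 0.08 in PTZ45 alone. Nuclear pore genes had 1 of 20 called higher and 0 lower, with a median of 0.04 that was 0.01 with lane as a term.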
